A study of Mus musculus with 12 samples.

Results

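The lymph node egress genes described here are 7 genes of T-cell exit from and passage through lymph nodes: the sphingosine 1-phosphate (S1P) receptor genes S1pr1, S1pr4 and S1pr5, the transcription factor genes Klf2 and Klf3, the selectin ligand gene Selplg and the oxysterol receptor gene Gpr183. They were taken by gene name from a table of 26962 genes, in which all 7 have a row. Selplg encodes PSGL-1, a ligand of P-selectin. The table covers 12 libraries of cells sorted as CD8-positive and positive for an Rpl18 tetramer, which labels cells whose receptor binds a peptide of that protein. All 4 groups come from mice that had been injected 10 days earlier with MC38, a mouse colon carcinoma line. The groups, of 3 libraries each, are knockout (KO) tumor, wild-type (WT) tumor, KO tumor-draining lymph node (TDLN) and WT TDLN. KO mice carry a knockout, specific to CD8 cells, of TrIP, a transmembrane inhibitor of PI3K encoded by Pik3ip1. The sources used here give neither the allele and the driver of the deletion nor the strain and age of the mice. Libraries are called by their label numbers, 1, 2 and 3 in KO and 1, 3 and 4 in WT. The labels do not say that each library is a separate mouse, so p-values measure the spread between libraries.

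As background, lymph and blood hold much more S1P than the tissue of a lymph node, and a T cell that carries S1PR1, the receptor encoded by S1pr1, follows that gradient out of the node. KLF2 is a transcription factor of resting T cells that drives S1pr1. CD69, which activated cells make, binds S1PR1 and takes it from the cell surface. T cells that stay in a tissue are known for low Klf2 and S1pr1 and high Cd69.

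The libraries labelled KO were first set against their labels. Pik3ip1 averaged 108 ± 59.96 normalized counts in KO tumor and 145.2 ± 30.81 in WT tumor (SD, n = 3 each), a log2 difference of -0.44 (limma adjusted p = 0.814). In TDLN it averaged 1146 ± 378.3 in KO and 845.5 ± 244.3 in WT, a log2 difference of 0.42 (adjusted p = 1). Whole-gene values can miss the loss of single exons, so KO is used throughout as the label of the libraries. All 14 markers of CD8 T cells were in the table, and Cd8a stood between 12566 and 37954 normalized counts in the 12 libraries. The depth in genes was estimated at between 18.3 M and 36.9 M reads per library. On the second principal component, with 8.2% of the variance, WT tumor replicate 3 lay at 77.4 and the other tumor libraries between -23.7 and 5.

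Transcripts of other cell types differed between the tissues as well. Together the 15 markers of macrophages and monocytes made up 0.143% to 0.307% of a library in KO tumor and 0.0841% to 0.255% in WT tumor, against 0.0487% to 0.09% in KO TDLN and 0.042% to 0.0672% in WT TDLN. Of these 15, 13 passed the test as higher in tumor in KO and 12 in WT. Ly6c2 had the highest values of the 15 in TDLN, at 8909 to 20581 normalized counts in KO and 6586 to 13972 in WT. In tumor it was at 11858 to 19984 in KO and 8426 to 36928 in WT. C1qa, a defining marker of tissue macrophages, was at 446 to 837 normalized counts in KO tumor and at 369 to 949 in WT tumor, and at 0 to 0.876 in all TDLN libraries. The 12 B-cell markers made up 0.00348% to 0.00536% in KO tumor and 0.00348% to 0.0101% in WT tumor, against 0.0281% to 0.0463% in KO TDLN and 0.023% to 0.0315% in WT TDLN. Of the 11 that were tested, 9 passed as lower in tumor in KO and 7 in WT. The 6 markers of CD4 and regulatory T cells made up 0.0307% to 0.0646% in KO tumor and 0.0293% to 0.0622% in WT tumor. In TDLN they made up 0.00245% to 0.00473% in KO and 0.00128% to 0.00542% in WT. Of the 5 that were tested, 2 passed as higher in tumor in each genotype. Ctla4 and Ikzf2 had the highest values of the 6 in tumor, with Ctla4 at 5221 to 10694 in KO and 6221 to 9791 in WT. Foxp3, Cd40lg and Zbtb7b overlapped between the tissues in each genotype, and the higher share in tumor rests mostly on Ctla4 and Ikzf2. Cd4 itself overlapped too, at 12.7 to 14.6 in KO tumor and 5.02 to 12.4 in WT tumor. In TDLN Cd4 was at 6.72 to 13.1 in KO and 0.876 to 23.6 in WT. B cells, macrophages and other T cells carry some of the egress genes too, and a sort for CD8 and tetramer would remove most such cells. The part of these transcripts in the differences below was not tested, and in bulk samples fewer cells of a type and less RNA per cell cannot be told apart.

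Tumor was set against TDLN within each genotype to see how the egress genes differ between cells at the tumor and cells in the node that drains it. In KO, S1pr4, Selplg and Klf2 fell in tumor, and S1pr1 was lower in every library without passing the test. In WT, S1pr1, S1pr4 and Klf2 fell in tumor. Klf3 and Gpr183 passed in neither genotype, and no egress gene rose. Thus 3 of the 6 genes tested fell and 0 rose in KO, where 12.6% of all 16065 genes tested fell and 18.1% rose, 30.6% in all. In WT 3 of 6 fell and 0 rose as well, where 10.9% of all genes fell and 15.9% rose, 26.8% in all. All tumor libraries lay below all TDLN libraries for 5 of the 6 in KO, against 22.7% of all genes, and for 3 of the 6 in WT, against 17%. The median log2 difference of the 6 was -0.75 in KO and -0.82 in WT, against 0.05 over all genes in each. S1pr5 was too low to be tested. Differences are on the scale of log2(normalized count + 24.9), where 24.9 is the value of 1 CPM; this scale understates the change of low genes. A gene is said to rise, fall or be called where its limma p, adjusted over all genes tested, is under 0.05.

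**Figure D1:**
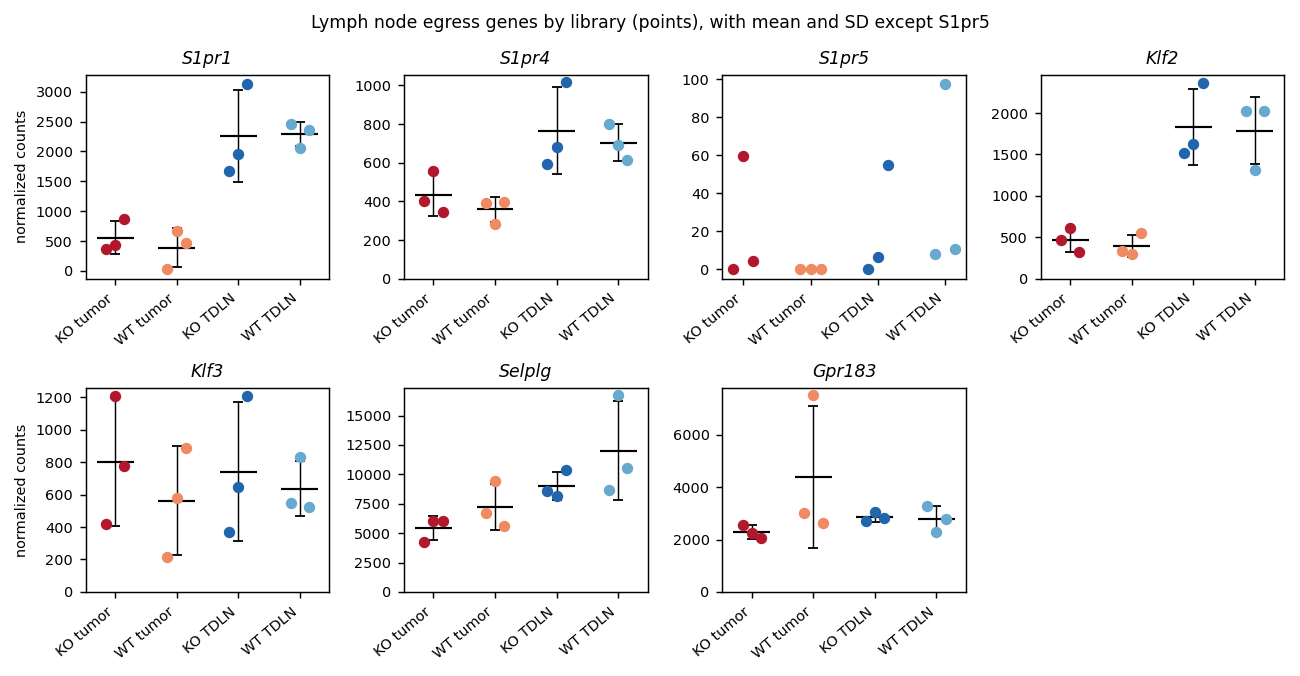
Normalized counts of each egress gene in the 12 libraries, 1 panel per gene with its own linear axis. Points are libraries, horizontal lines group means and bars SD (n = 3), left out for S1pr5, which is listed at 0 in 5 libraries. Klf2 and S1pr1 sit lower in all tumor libraries than in all TDLN libraries, while Klf3 overlaps between the tissues and Gpr183 is highest in 1 WT tumor library, at 7501.

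S1PR1 is the receptor that T cells need to leave a lymph node. S1pr1 (GRCm38 chr3:115710433-115715072, minus strand) stood at 368.5, 433.9 and 873.4 normalized counts in KO tumor replicates 1, 2 and 3. In WT tumor it stood at 26.79, 664.7 and 462.9 in replicates 1, 3 and 4. In KO TDLN the values were 1677, 1952 and 3131, and in WT TDLN 2456, 2062 and 2359. Every tumor library was thus below every TDLN library of its genotype, and WT tumor replicate 1 was far below the rest. The log2 difference of tumor from TDLN in KO was -2.01 (SE 0.73, 95% interval -3.59 to -0.43, adjusted p = 0.0526), 4.03-fold lower, which missed the threshold. In WT it was -3.16 (SE 0.73, 95% interval -4.73 to -1.58, adjusted p = 0.00742), 8.92-fold lower. A single library, WT tumor replicate 1, sets much of the size in WT and of the errors in both genotypes. Without WT tumor replicate 1 the difference in WT was -1.99 (adjusted p = 0.00167), and that in KO passed (adjusted p = 0.000652), since all groups share 1 estimate of spread. The KO difference also passed without KO tumor replicate 3 (adjusted p = 0.047) and without WT tumor replicate 3 or 4 (adjusted p = 0.0274 and 0.0463). The KO difference passed in 10 of the 22 alternatives tried and the WT difference in all 22. Endothelial cells carry S1pr1 too, and the 8 endothelial markers made up 0.000687% to 0.0101% of a library in KO tumor and 0.000577% to 0.00755% in WT tumor, against 0.00126% to 0.00197% in KO TDLN and 0.000914% to 0.00245% in WT TDLN. KO tumor replicate 3, the tumor library with the most S1pr1, had the highest of these shares, and their part was not tested.

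S1PR4 is an S1P receptor of lymphocytes and other blood cells, for which a general part in egress is not established. S1pr4 (GRCm38 chr10:81497747-81500132, minus strand) had 400.4, 558.3 and 346.6 normalized counts in KO tumor, and 391.6, 284.6 and 398.3 in WT tumor. The TDLN libraries held 592.6, 683.3 and 1020 in KO, and 803.2, 693.9 and 614.6 in WT. The tissues did not overlap in either genotype, and the libraries of a group lay closer together, relative to their mean, than for S1pr1 in all groups except WT TDLN. S1pr4 was 1.71-fold lower in tumor in KO (log2 -0.77, SE 0.25, adjusted p = 0.0358). In WT it was 1.91-fold lower (log2 -0.93, SE 0.25, adjusted p = 0.0163). The call in KO was lost in 7 of the 22 alternatives, with the highest adjusted p, 0.142, and a log2 difference of -0.55 without KO TDLN replicate 3. It also ended without KO TDLN replicate 2 (adjusted p = 0.0668) and without replicate 1 or 3 of KO tumor (adjusted p = 0.1 and 0.104). The call in WT was lost only without WT TDLN replicate 1 (adjusted p = 0.0614).

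Per kilobase of exon S1pr1 stood well above S1pr4 in TDLN and near it in tumor. S1pr1 averaged 183.4 normalized counts per kilobase in KO tumor and 126.3 in WT tumor, beside 182.3 and 150.1 for S1pr4. In TDLN S1pr1 averaged 739.8 per kilobase in KO and 752.6 in WT, beside 320.7 and 295 for S1pr4. The ratio of S1pr1 to S1pr4 per kilobase ran from 0.609 to 1.97 in KO tumor and from 0.0536 to 1.83 in WT tumor, against 2.22 to 2.41 in KO TDLN and 2.33 to 3.01 in WT TDLN. S1pr1 was thus above S1pr4 in all 6 TDLN libraries, and in tumor the order varied by library. Lengths are those of all annotated exons of a gene in GENCODE M21, which is not established as the annotation behind the table.

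S1PR5 is the S1P receptor by which natural killer cells leave the bone marrow and lymph nodes. S1pr5 (GRCm38 chr9:21242912-21248443, minus strand) had 0, 59.63 and 4.159 normalized counts in KO tumor and was listed at 0 in all 3 WT tumor libraries. KO TDLN held 0, 6.57 and 54.73, and WT TDLN 8.082, 97.51 and 10.51. In KO tumor replicate 2, KO TDLN replicate 3 and WT TDLN replicate 3 it was well above the rest of its group. The highest value amounts to about 120 reads. Its mean of 20.1 was under the filter of 24.9, and with no filter the log2 difference was -0.01 in KO (adjusted p = 1) and -1.07 in WT (adjusted p = 0.265). The 10 natural killer cell markers made up 0.0642% to 0.105% of a library in KO tumor and 0.0404% to 0.0484% in WT tumor, against 0.0171% to 0.0428% in KO TDLN and 0.0232% to 0.0747% in WT TDLN. Of the 8 that were tested, 4 passed as higher in tumor in each genotype. Klre1 was at 2922 to 4311 in KO tumor and 969 to 3872 in WT tumor. In TDLN Klre1 was at 78.7 to 118 in KO and 58.6 to 207 in WT. Ncr1, their defining marker, was at 0 in every KO library and at 0 to 14.9 in WT libraries. The part of natural killer cells in S1pr5 was not tested.

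KLF2 drives S1pr1 in resting T cells and falls after activation. Klf2 (GRCm38 chr8:72319033-72321656, plus strand) had 472.5, 609 and 316.1 normalized counts in KO tumor, and 338, 294.7 and 546.6 in WT tumor. The TDLN libraries held 1522, 1622 and 2361 in KO, and 2025, 1317 and 2021 in WT. The highest tumor value, 609, was below the lowest TDLN value, 1317. Klf2 was 3.84-fold lower in tumor in KO (log2 -1.94, SE 0.30, 95% interval -2.59 to -1.30, adjusted p = 0.000549). It was 4.4-fold lower in WT (log2 -2.14, SE 0.30, 95% interval -2.78 to -1.49, adjusted p = 0.00033). It was the only egress gene that was called in both genotypes under all 22 alternatives, where its log2 difference ran from -2.15 to -1.7 in KO and from -2.38 to -1.95 in WT.

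KLF3 is a related factor that mostly represses its targets and binds the same CACCC-type sites as other family members. Klf3 (GRCm38 chr5:64803388-64832901, plus strand) had 416.8, 1208 and 774.1 normalized counts in KO tumor, and 216.4, 581.4 and 888.7 in WT tumor. The TDLN libraries held 368.6, 648.2 and 1206 in KO, and 549.5, 829.4 and 526 in WT. The groups overlapped widely, since the libraries of KO tumor or of KO TDLN alone spanned most of the range of all 12. The log2 difference of tumor from TDLN was 0.14 in KO (95% interval -0.99 to 1.27, adjusted p = 0.864) and -0.34 in WT (95% interval -1.47 to 0.79, adjusted p = 0.661). These intervals hold changes of the size seen for S1pr4. Per kilobase, Klf2 was 2.49 to 6.9 times as high as Klf3 in KO tumor and 3.09 to 9.51 times in WT tumor, against 11.9 to 25.1 times in KO TDLN and 9.67 to 23.4 times in WT TDLN.

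The sequence before the gene start is shown for Klf2 and S1pr4, which fell in both genotypes. Each is 250 bases from RefSeq on GRCm38.p6, read 5′ to 3′ on the gene's strand, at chr8:72318812-72319061 (plus) and chr10:81500138-81500387 (minus). The windows end at RefSeq's gene starts, which differ from those of GENCODE given above: 29 bases of the Klf2 window and 133 of the Klf3 window lie inside the GENCODE gene. Capitals mark CACCC on either strand, the core that KLF factors bind, and in Klf2 also the MEF2 motif.
Klf2: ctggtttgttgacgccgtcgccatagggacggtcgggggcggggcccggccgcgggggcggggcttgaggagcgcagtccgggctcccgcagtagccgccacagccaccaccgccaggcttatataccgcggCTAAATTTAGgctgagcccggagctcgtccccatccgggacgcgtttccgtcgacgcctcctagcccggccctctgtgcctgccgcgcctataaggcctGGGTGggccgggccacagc
S1pr4: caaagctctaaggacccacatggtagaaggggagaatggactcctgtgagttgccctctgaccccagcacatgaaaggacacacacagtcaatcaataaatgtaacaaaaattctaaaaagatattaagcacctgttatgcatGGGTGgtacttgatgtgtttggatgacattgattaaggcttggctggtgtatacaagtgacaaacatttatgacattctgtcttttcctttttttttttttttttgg
The windows of Klf2 and S1pr4 held 1 CACCC match each, and that of Klf3, which did not pass in either genotype, held 5. S1pr5 had 2 and Gpr183 had 0, which makes 5 of the 7 genes with a window. The Klf2 window also held CTAAATTTAG, a match to the MEF2 motif, starting 118 bases (position -118) before RefSeq's gene start at 72319062. GTAAACA, the core that forkhead factors such as FOXO1 bind, was in none of the 5 windows on either strand. Of 32851 windows of the same length, 52% held CACCC, 3.17% GTAAACA and 2.92% the MEF2 motif. A match is a description of these letters and does not show binding.

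PSGL-1 is a mucin-like protein on T cells that binds selectins once it carries the right sugars, and it is also known as a brake on activated T cells. Selplg (GRCm38 chr5:113818536-113832644, minus strand) had 4268, 6056 and 6025 normalized counts in KO tumor, and 6679, 9411 and 5623 in WT tumor. The TDLN libraries held 8545, 8119 and 10398 in KO, and 8712, 16735 and 10575 in WT. The tissues did not overlap in KO, and in WT 1 tumor library, replicate 3, was above the lowest TDLN library. Selplg was 1.66-fold lower in tumor in KO (log2 -0.73, SE 0.25, 95% interval -1.29 to -0.18, adjusted p = 0.0455). In WT the difference was of like size and missed the threshold (log2 -0.71, SE 0.25, 95% interval -1.26 to -0.15, adjusted p = 0.0577). The call in KO was lost in 10 of the 22 alternatives and the WT difference passed in 5, so Selplg lies at the threshold in both. Leaving out any 1 of the 6 KO libraries ended the KO call, with adjusted p from 0.0545 to 0.169, as did leaving out WT TDLN replicate 4 (adjusted p = 0.0581) or WT tumor replicate 1 (adjusted p = 0.0528). The WT difference passed without WT tumor replicate 3 (adjusted p = 0.0209) and without WT TDLN replicate 1 (adjusted p = 0.0328), at -0.91 in both. Per kilobase it was the most abundant of the 7 genes in every group, at 1276 in KO tumor, 1694 in WT tumor, 2112 in KO TDLN and 2811 in WT TDLN.

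GPR183, also called EBI2, is a receptor for oxysterols that guides B cells, dendritic cells and T cells within lymphoid tissue. Gpr183 (GRCm38 chr14:121952551-121965195, minus strand) had 2565, 2244 and 2068 normalized counts in KO tumor, and 3008, 7501 and 2642 in WT tumor. The TDLN libraries held 2690, 3042 and 2812 in KO, and 3291, 2295 and 2767 in WT. WT tumor replicate 3, the library that stood apart on the second component, was above every other library, and the 11 others lay close together. The log2 difference of tumor from TDLN was -0.31 in KO (95% interval -0.99 to 0.36, adjusted p = 0.468), although the groups did not overlap. In WT it was 0.50 (95% interval -0.17 to 1.17, adjusted p = 0.251). B cells carry Gpr183 too, and B-cell markers made up 0.0101% of WT tumor replicate 3, the highest of the tumor libraries. In TDLN the shares were 0.023% to 0.0463%, and Gpr183 was at 2295 to 3291. The part of B cells in Gpr183 was not tested.

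**Figure D2:**
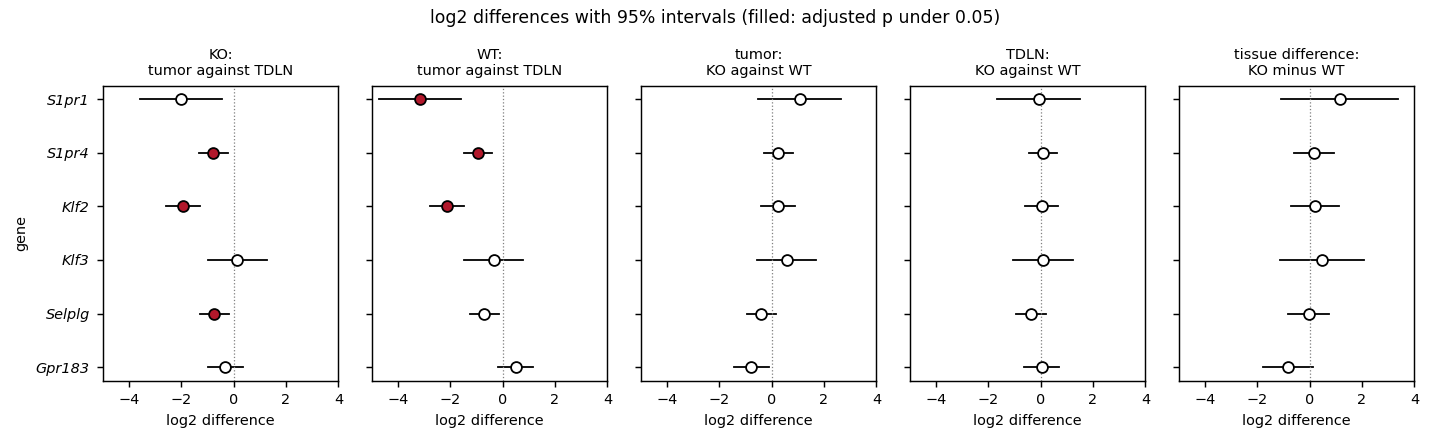
Log2 differences (points) with 95% intervals (lines) of the 6 egress genes tested, 1 panel per comparison. Filled points passed the limma test at an adjusted p under 0.05. The passing points are Klf2 and S1pr4 in both tissue panels, Selplg in KO and S1pr1 in WT, and none passed in the genotype panels or for the tissue difference in KO minus that in WT.

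KO was set against WT within each tissue to ask whether libraries labelled TrIP knockout differ in the egress genes. No egress gene passed in tumor or in TDLN by limma, and neither did any of the 16065 genes tested (0% in each). At an unadjusted p under 0.05, 1004 genes differed in tumor and 123 in TDLN, and among the egress genes Gpr183 in tumor was the only one. Gpr183 averaged lower in KO tumor than in WT tumor, at -0.77 on the log2 scale (SE 0.31, 95% interval -1.44 to -0.10, adjusted p = 0.771). All 3 KO tumor libraries lay below all 3 WT tumor libraries, as for 3.37% of all genes in that direction and 7.48% in either. Without WT tumor replicate 3 the difference was -0.30 (adjusted p = 1). The CD8 T-cell markers made up 0.591% to 0.606% of a library in KO tumor and 0.751% to 0.955% in WT tumor, and 1 of the 14 had a log2 difference above 0 (median -0.40). All 15 macrophage and monocyte markers and all 8 natural killer cell markers tested were above 0 (medians 0.54 and 0.88), and none of these markers passed the test. Their part in the genotype differences in tumor was not tested.

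The other egress genes overlapped between the genotypes in tumor, and all 6 did in TDLN, where 6.35% of all genes did not. In tumor the log2 difference of KO from WT was 1.07 for S1pr1 (SE 0.73, 95% interval -0.50 to 2.65, adjusted p = 0.811), and it was -0.09 without WT tumor replicate 1. S1pr4 differed by 0.25 (95% interval -0.29 to 0.80), Klf2 by 0.23, Klf3 by 0.57 (95% interval -0.56 to 1.70) and Selplg by -0.39 (95% interval -0.95 to 0.16), with adjusted p from 0.81 to 0.882. In TDLN the differences were smaller, at -0.07 for S1pr1, 0.09 for S1pr4, 0.04 for Klf2, 0.09 for Klf3, -0.36 for Selplg and 0.05 for Gpr183, all with an adjusted p of 1.

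The tissue difference was then compared between the genotypes. S1pr1 was lower in tumor by 1.15 log2 less in KO than in WT (SE 1.03, 95% interval -1.08 to 3.38, adjusted p = 1). S1pr1 passed in WT alone, and this test does not show that the genotypes differ in it. For Selplg, which passed in KO alone, the difference between the genotypes was -0.03 (SE 0.36, 95% interval -0.81 to 0.75, adjusted p = 1). Klf2, S1pr4 and Klf3 gave 0.20, 0.16 and 0.48, and Gpr183 gave -0.81 (SE 0.44, 95% interval -1.77 to 0.14), each with an adjusted p of 1. Over all genes 0% were called, with 465 at an unadjusted p under 0.05.

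The wider set of homing and retention genes moved in both directions between the tissues. It holds chemokine and adhesion receptors, CD69 and the regulators of G-protein signals, and 33 of its 34 genes were tested. In KO 9 rose in tumor (27.3%, against 18.1% of all genes) and 6 fell (18.2%, against 12.6%). In WT 6 rose (18.2%, against 15.9%) and 7 fell (21.2%, against 10.9%). The medians of 0.01 in KO and 0.15 in WT stand beside 0.05 over all genes. Itgb7, the integrin chain for homing to gut, fell in both, at -2.55 in KO (adjusted p = 0.000142) and -2.87 in WT (adjusted p = 6.76e-05). Cxcr3, a chemokine receptor of effector T cells, fell likewise, at -3.19 in KO (adjusted p = 7.11e-05) and -3.34 in WT (adjusted p = 6.23e-05).

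Cd69, whose product removes S1PR1 from the surface, was higher in every tumor library than in every TDLN library. It stood at 11234, 7890 and 9363 normalized counts in KO tumor and at 7169, 24829 and 17489 in WT tumor, against 1463, 1276 and 2061 in KO TDLN and 918.4, 1887 and 572.6 in WT TDLN. The log2 difference was 2.56 in KO (SE 0.45, adjusted p = 0.00129) and 3.83 in WT (SE 0.45, adjusted p = 9.35e-05), and the KO difference minus the WT difference was -1.27 (SE 0.63, adjusted p = 1). Rgs1, a regulator that damps signals of chemokine receptors, rose by 3.63 in KO (adjusted p = 2.38e-05) and by 3.43 in WT (adjusted p = 4.86e-05). Ccr7, the receptor that brings T cells into the node, did not separate the tissues, at 4096, 598.9 and 2128 normalized counts in KO tumor and 160.7, 6808 and 4129 in WT tumor, against 1751, 1047 and 2849 in KO TDLN and 1359, 2732 and 940.3 in WT TDLN. Its log2 difference was 0.01 in KO and 0.17 in WT (adjusted p = 0.997 and 0.923), and the tumor libraries were on both sides of the TDLN range. Foxo1, which drives Klf2 in T cells, did not pass (0.44 in KO, 0.15 in WT), nor did Cxcr4 (0.55 and -0.12) or Il7r (-0.07 and 0.29). WT tumor replicate 1, the lowest library for S1pr1, was also lowest of all 12 for Ccr7. The 15 macrophage and monocyte markers made up 0.255% of it, the highest share of the WT tumor libraries. That share includes Ly6c2, which was high in TDLN as well, so it does not measure macrophages alone. The part of macrophages in these values was not tested.

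Of 24 genes that make, carry, sense or break down S1P, 18 were tested. In KO 7 rose (38.9%, against 18.1% of all genes) and 0 fell (against 12.6%), and in WT 6 rose (33.3%, against 15.9%) and 0 fell (against 10.9%). The medians were 0.87 in KO and 0.81 in WT, against 0.05 over all genes. Sgpl1, the lyase that destroys S1P, rose by 1.39 in KO (adjusted p = 0.0017) and by 1.53 in WT (adjusted p = 0.00104). Cers6, which makes ceramide, rose by 2.92 and 2.97, and Asah1, which splits ceramide to free sphingosine, by 1.82 and 1.38. Plpp3, a lipid phosphatase that removes extracellular S1P, was at 177.9, 135.8 and 292.5 normalized counts in KO tumor and 78.31, 75.29 and 112.3 in WT tumor, with 4 of 6 TDLN libraries at 0. S1pr2, a receptor that opposes migration toward S1P, rose in KO by 1.69 (adjusted p = 0.0371, lost without any 1 of 5 KO libraries, with the highest adjusted p, 0.148, without KO TDLN replicate 1) and differed by 0.87 in WT (adjusted p = 0.268). Fibroblasts, endothelial cells and macrophages also carry several of these genes, and fibroblast markers made up 0.0192% to 0.0671% in KO tumor and 0.0214% to 0.131% in WT tumor, against at most 5.84e-05% in TDLN. Their part was not tested.

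Some other KLF factors rose where Klf2 fell. Of 10 other KLF genes tested, 7 rose and 0 fell in KO and 4 rose and 0 fell in WT. With SP factors and partners the list has 28 genes, of which 23 were tested. In KO 10 rose (43.5%, against 18.1% of all genes) and 1 fell (4.35%, against 12.6%), and in WT 8 rose (34.8%, against 15.9%) and 0 fell (against 10.9%). The medians were 0.65 in KO and 0.39 in WT, against 0.05 over all genes. Klf4, a factor of quiescent T cells and of macrophages, stood at 3817, 2445 and 1956 normalized counts in KO tumor and at 1309, 1749 and 4058 in WT tumor, against 13.15, 30.66 and 26.88 in KO TDLN and 11.11, 0 and 10.51 in WT TDLN. Klf6, induced by stress and activation, rose by 2.70 in KO (SE 0.22, adjusted p = 4.74e-06) and by 2.75 in WT (SE 0.22, adjusted p = 4.86e-06). Ctbp2, a corepressor that KLF3 binds, rose by 2.11 in KO and by 1.87 in WT. Klf7 rose in KO by 1.08 (adjusted p = 0.037), a call lost in 10 of the 22 alternatives, including without any 1 of the 6 KO libraries, and differed by 0.80 in WT (adjusted p = 0.114). Klf13 differed by -0.48 in each genotype (adjusted p = 0.2 and 0.218). The gene that fell in KO was Sp1 (-0.76, adjusted p = 0.018), named after its value was seen. Macrophages carry Klf4 and Klf6 as well, and the macrophage marker shares above differ in the same direction as these genes; their part was not tested.

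Among the 22 genes tested of 28 for selectins and the sugars of PSGL-1, 5 rose (22.7%, against 18.1% of all genes) and 2 fell (9.09%, against 12.6%) in KO. In WT 4 rose (18.2%, against 15.9%) and 4 fell (18.2%, against 10.9%). Apart from those that fell in WT, these shares lie near those of all genes, and the medians were 0.10 in KO and 0.01 in WT. Fut7, the fucosyltransferase that makes PSGL-1 able to bind selectins, stood at 125.9, 71.05 and 62.38 normalized counts in KO tumor and at 91.71, 27.96 and 39.19 in WT tumor. In TDLN it stood at 1037, 936.3 and 1080 in KO and at 1234, 1055 and 1456 in WT. Its log2 difference was -3.27 in KO (SE 0.31, adjusted p = 1.34e-05) and -4.10 in WT (SE 0.31, adjusted p = 2.52e-06), larger than that of Selplg. Galnt3, which starts O-linked sugar chains, rose by 1.99 in KO and by 2.27 in WT. Gcnt1, the branching enzyme of those chains, was at log2 -0.00 and 0.27 and did not pass. Cd34, a sialomucin of endothelial and stem cells, was at 348.4 to 2577 normalized counts in tumor and listed at 0 in all 6 TDLN libraries. The part of other cell types in Cd34 was not tested.

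Of the 8 genes of oxysterol ligand making and breakdown, 4 were tested. Ch25h, the enzyme that makes the precursor of the GPR183 ligand, stood at 267.2, 232.2 and 352.8 normalized counts in KO tumor. It stood at 344.8, 151.1 and 398.3 in WT tumor, and was listed at 0 in all 6 TDLN libraries. The part of other cell types in Ch25h was not tested. Hsd3b7, which degrades the GPR183 ligand, rose by 1.76 in KO (adjusted p = 0.0035) and by 1.73 in WT (adjusted p = 0.0042). Hsd11b1, which acts on glucocorticoids and on oxysterols, fell by 1.48 in KO (adjusted p = 0.0028) and differed by -0.43 in WT (adjusted p = 0.293). In tumor Hsd11b1 was at log2 -0.74 in KO against WT (adjusted p = 0.771). No gene of the 5 lists passed between KO and WT in either tissue.

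**Figure D3:**
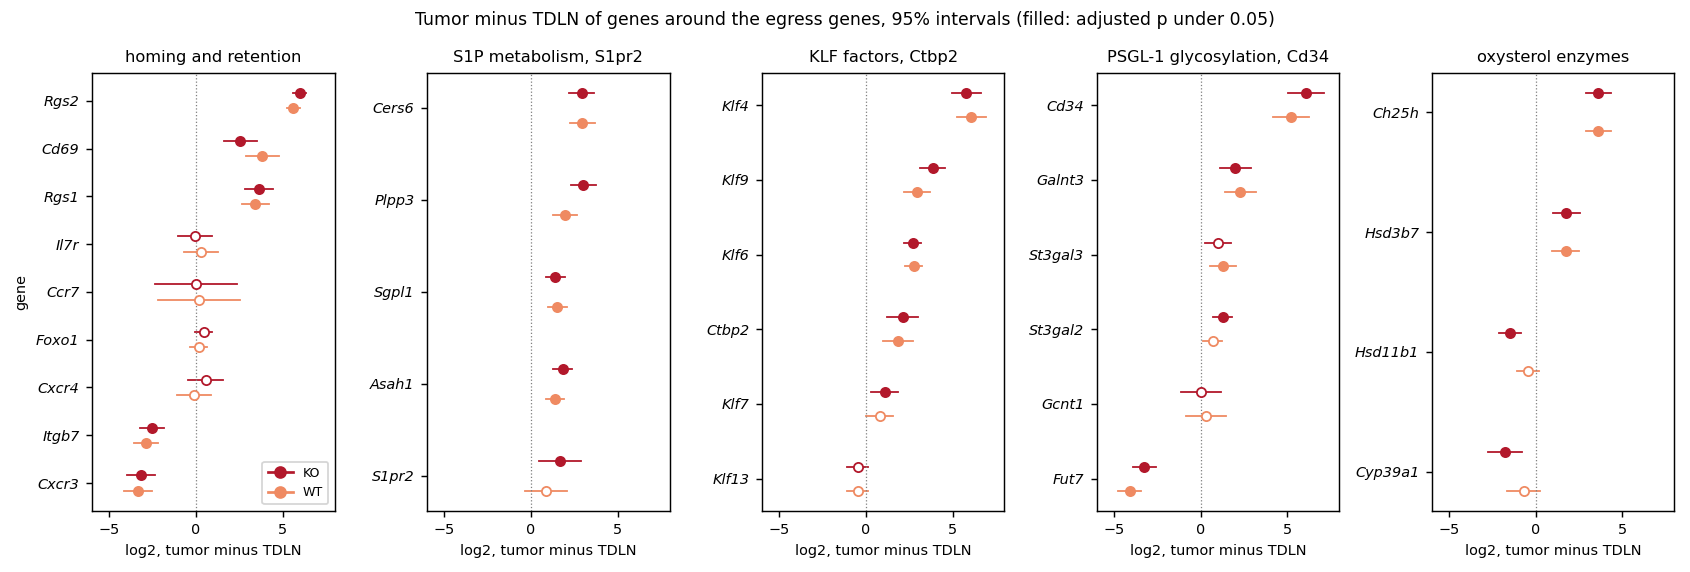
Log2 differences of tumor minus TDLN for the named genes of the 5 lists, with 95% intervals, KO above WT at each gene. Filled points passed the limma test at an adjusted p under 0.05. Itgb7, Cxcr3 and Fut7 lie far below 0 in both genotypes, and Cd69, Rgs1 and Klf4 far above it; Cd34 and Ch25h are at 0 in all TDLN libraries, so the size of their points is set by the pseudocount.

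The genes whose profiles over the 12 libraries were most like each egress gene were ranked by the root-mean-square difference of log2 values, after each gene's mean was removed. For S1pr1 these were Tcf7 (0.594), a transcription factor of naive and stem-like T cells, Slamf6 (0.640) and Aff3 (0.670). For Klf2 they were Fam78a (0.296), Rcsd1 (0.316) and Rasa3 (0.354). For S1pr4 they were Cep19 (0.140), Exoc3 (0.164) and Galnt12 (0.170), and for Selplg Grap (0.133), Arpc4 (0.159) and Cdc37 (0.165). The nearest gene to Klf3, Zc3h6, was at 0.422, and that to Gpr183, Snapc4, at 0.234. Klf2 lay at 1.009 from S1pr1, farther than the 3 genes named for it. Klf2 was still the nearest of the egress genes tested to S1pr1, at rank 49, with S1pr4 next at rank 810. Among the genes ranked for Klf2, S1pr1 stood at rank 3316. All libraries share the tissue difference, which sets much of this likeness for the genes that differ between tissues.

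**Figure D4:**
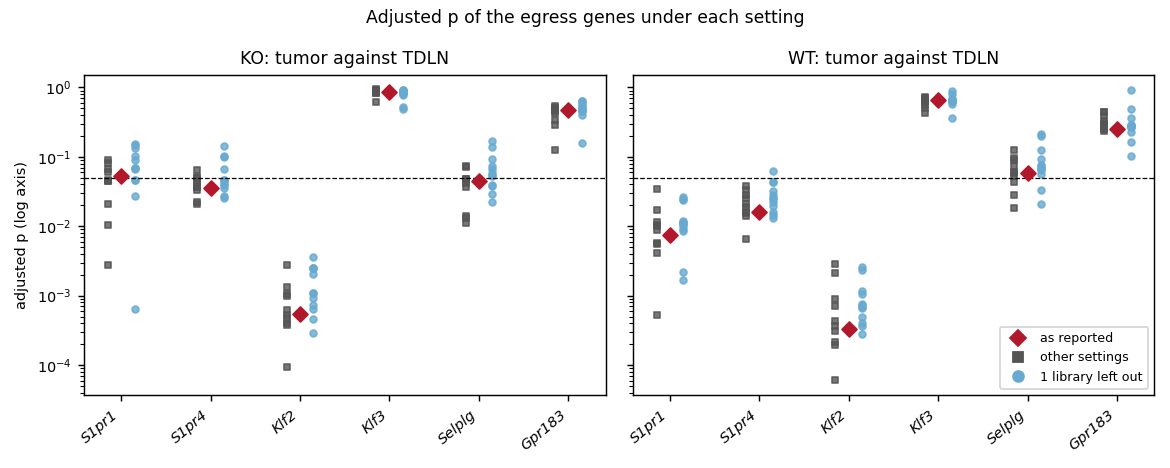
Adjusted p (log axis) of the tumor against TDLN difference of the 6 egress genes, in KO (left) and WT (right). Diamonds are the reported values, squares the other settings and circles the fits with 1 library left out; the dashed line is 0.05. Klf2 stays below the line in both panels, as does S1pr1 in WT. In KO, S1pr1, S1pr4 and Selplg fall on both sides of it, and in WT S1pr4 and Selplg do.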

How the data were processed

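RNA of tetramer-positive CD8 T cells was sequenced with a stranded polyA kit, per the labels. The deposited signal values are normalized counts exported from Partek, per the file headers, with 1 column per library and totals between 22113970 and 26490590. The builds GRCm38 and GRCm39 stand in the submitters' processing notes with no role, and no aligner or quantifier is given in the sources used here. The median ratio of a deposited column to the geometric mean over libraries is 1.026 in all 12. Of values worth under 50 reads, 87.0% to 89.6% come out as whole reads within 0.01. The remaining values are fractions of reads, so count models were not used.

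The filter kept the 16065 of 26962 genes whose mean reached 1 CPM, 24.9 normalized counts. Group means were fitted to log2(value + 24.9) of the 12 libraries in 1 model with limma 3.58.1 (R 4.3.3), with an intensity trend, 8 residual and 4.47 prior degrees of freedom, two-sided tests and Benjamini-Hochberg adjustment within each comparison. Recovery of known changes was tested on simulated data. Tables and figures were made with Python 3.11.15, numpy 2.4.6, pandas 2.3.3 and matplotlib 3.10.9. Gene coordinates and exon lengths come from GENCODE M21 on GRCm38, which is not established as the annotation behind the table.

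The comparisons were tumor against TDLN in KO and in WT, KO against WT in each tissue, and the difference of these differences. The 7 genes, the 5 lists around them, the marker lists and the rule for named genes were chosen with earlier results of these data known. The rule takes a fixed set of genes from each list, up to 4 with the largest change among those called in a tissue comparison and up to 2 of smallest p between genotypes, and the text gives a selection of these. Some genes of these lists are not reported here. Other genes of a list are named where a count of 5 or fewer falls outside the rule. The 22 alternatives changed the pseudocount, filter, scaling, weights, libraries or model 1 at a time.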

Additional observations from a re-analysis of the deposited data

How the results depend on the processing

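Klf2 in both genotypes and S1pr1 in WT were called in all 22 alternatives. With no filter on low values, 1 egress gene was called lower in KO, against 3 as reported. Leaving out 1 library gave 1 to 4 lower in KO and 3 to 4 lower in WT, and no egress gene was called higher or between genotypes in any alternative. Over all genes, a scaling to a common total moved the median log2 difference of tumor from TDLN to -0.02 in KO and -0.11 in WT, against 0.05 in each as reported. Quantile normalization moved it to -0.12 in KO and -0.09 in WT. The reported calls were 2902 higher and 2017 lower in KO, with 2396 and 2870 under quantile normalization. In WT they were 2560 higher and 1752 lower, with 2110 and 2527 under a common total and 2018 and 2285 under quantile normalization. The egress genes that were called kept their sign under both scalings. Calls in KO were 3913 and 3176 with array weights, 1878 and 1768 at a mean of at least 5 CPM, and 2037 and 1030 without KO TDLN replicate 1. In WT they were 1845 and 1052 with the compared groups alone and 1851 and 1081 without WT TDLN replicate 4. Between KO and WT in tumor, 5 genes were called higher and 1 lower with no filter, and 10 higher without WT tumor replicate 1. The cause of these moves was not tested.

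Signs turned only for differences that were not called. With array weights, Ccr7 in WT tumor against TDLN was -0.76, and in TDLN KO against WT S1pr4 was -0.01, Klf2 -0.20 and Gpr183 -0.02. With a common total, Ccr7 in KO tumor against TDLN was -0.07, Klf2 and Gpr183 in TDLN KO against WT were -0.02 and -0.01, and the genotype difference of the tissue differences of Selplg was 0.07. With quantile normalization the last was 0.05 and Ccr7 in KO was -0.02. With 1 library left out, KO against WT in TDLN ran from -0.33 to 0.11 for S1pr1, -0.13 to 0.25 for S1pr4, -0.17 to 0.16 for Klf2, -0.33 to 0.49 for Klf3 and -0.08 to 0.17 for Gpr183. KO against WT in tumor ran from -0.09 to 1.78 for S1pr1. Tumor against TDLN ran from -0.26 to 0.56 in KO and -0.76 to 0.20 in WT for Klf3, and from -0.60 to 0.76 in KO and -0.81 to 1.79 in WT for Ccr7. The difference of the tissue differences ran from -0.02 to 1.85 for S1pr1, -0.02 to 0.38 for S1pr4, -0.01 to 0.44 for Klf2, -0.06 to 0.90 for Klf3 and -0.29 to 0.18 for Selplg.

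Tumor and TDLN libraries share replicate numbers within each genotype, and the reported fit did not pair them. Deviations of same-numbered libraries correlated at -0.02, 0.04 and -0.00 in KO and at 0.01, 0.20 and -0.04 in WT. With 3 libraries a group, deviations from the group mean are not independent, so these correlations cannot decide whether the numbers pair libraries. On the second principal component, replicate 3 of WT lay apart in both tissues, at 77.4 in tumor and 19.5 in TDLN. The other TDLN libraries lay between -12.6 and -0.4 there. Several tumor libraries correlated best with a TDLN library of another number. With the replicate block, 3 egress genes were called lower in KO and 4 in WT. S1pr1 in KO then passed (adjusted p = 0.0449), S1pr4 in KO did not (adjusted p = 0.0638), and Selplg in WT passed (adjusted p = 0.0184). In TDLN KO against WT, the block gave 0.27 for S1pr1 and -0.11 for Gpr183.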

Other observations

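Several genes of the lists were called in both genotypes and were named here after their values were seen. Cd44, an adhesion receptor of activated T cells, was higher in tumor than in TDLN at a log2 difference of 2.09 in KO and 1.90 in WT. Itgb1, an integrin chain that pairs with several partners, was lower at -1.25 in KO and -1.72 in WT. Mef2a and Mef2d, which encode 2 of the factors that bind the MEF2 motif, were higher at 1.33 and 1.28 in KO and at 1.15 and 1.51 in WT, while Klf2 was lower. Klf9 was higher at 3.86 in KO and 2.95 in WT. Coro1a, an actin regulator that T cells need for egress, was lower at -0.93 in KO and -1.13 in WT.

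Among the genes that did not pass between the genotypes, Klf16 stood at 218.9, 252.5 and 171.9 normalized counts in KO tumor, against 115.4, 88.91 and 113.3 in WT tumor. Its log2 difference was 0.86 (SE 0.26, limma adjusted p = 0.771). Plpp3, with the values given above, differed by 0.96 (SE 0.32, adjusted p = 0.771). Both were higher in 3 of 3 KO tumor libraries than in any WT tumor library, as were 2 other genes of the lists, and 2 were lower likewise. These 6 of the 100 list genes tested compare with 7.48% of all genes.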
